A study of Mus musculus with 6 samples.

Results

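The genes described here are 10 regulators of mitochondrial biogenesis, out of 24391 genes in the deposited count table. They are the coactivators Ppargc1a, Ppargc1b and Pprc1, the DNA-binding factors Esrra, Nrf1 and Gabpa, and a mitochondrial transcription group, Tfam, Tfb1m, Tfb2m and Polrmt. They were picked by symbol for these roles, with earlier results of the same comparison and the very low counts of Ppargc1a known, so counts over the 10 describe them and support nothing further. All 10 symbols were found in the table and all 10 passed the filter on low counts.

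Poly(A) RNA was sequenced from Neuro2a cells, an established mouse neuroblastoma line, in 3 vehicle-treated control libraries and 3 libraries of cells treated with D-serine at 5 mM. All cultures were grown in D-MEM with fetal bovine serum and then moved for 18 h to a medium labelled D-MEM(-SG) with the same serum, so the change of medium is common to both groups. D-serine, the mirror image of L-serine, helps to open NMDA receptors for glutamate. Nothing in the labels says that the 3 libraries of a group came from separate cultures, and p-values measure the spread between these libraries, which may be technical.

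Mitochondria carry a small genome, but nearly all of their proteins are encoded in the nucleus. The PGC-1 coactivators bind no DNA themselves. They are recruited by nuclear receptors such as ERR-alpha and by the nuclear respiratory factors NRF1 and GABP, and in tissues such as brown fat and muscle they switch on genes of respiration. Among the genes that these factors control are Tfam, Tfb2m and Polrmt, whose products copy the mitochondrial genome into RNA. Another is Tfb1m, which encodes a methyltransferase of mitochondrial ribosomal RNA. Nrf1 here is nuclear respiratory factor 1 and not the unrelated stress factor Nfe2l1.

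The search for promoter motifs covered 9 of the 10 genes and left out Ppargc1b, whose promoter was not examined. It used RefSeq promoter entries matched by symbol, of the GRCm38.p6 build, from 250 bases before to 50 bases after an annotated start. Of these, 4 are shown as the 160 bases before the start, 5′ to 3′ on the gene's strand. They were chosen because they hold motifs read by these regulators, their partners or CREB. Polrmt and Ppargc1a are the pair of genes past the threshold, and Gabpa and Tfam are a pair that did not pass it. With the main settings otherwise kept, no fit with 1 library left out kept the call of Ppargc1a. Capitals mark the motifs searched on both strands.

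Ppargc1a, chr5:51567726-51567885, minus strand: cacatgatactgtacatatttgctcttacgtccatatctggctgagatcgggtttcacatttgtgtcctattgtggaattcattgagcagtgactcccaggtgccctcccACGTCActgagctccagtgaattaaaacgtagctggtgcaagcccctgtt
Polrmt, chr10:79746582-79746741, minus strand: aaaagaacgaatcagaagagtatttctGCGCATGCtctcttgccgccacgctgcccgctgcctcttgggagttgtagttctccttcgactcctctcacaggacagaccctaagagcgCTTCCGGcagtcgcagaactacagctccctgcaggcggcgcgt
Gabpa, chr16:84834964-84835123, plus strand: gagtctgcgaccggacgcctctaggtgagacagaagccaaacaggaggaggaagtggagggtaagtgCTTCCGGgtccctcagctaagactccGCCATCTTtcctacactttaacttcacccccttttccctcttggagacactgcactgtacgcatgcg
Tfam, chr10:71238045-71238204, minus strand: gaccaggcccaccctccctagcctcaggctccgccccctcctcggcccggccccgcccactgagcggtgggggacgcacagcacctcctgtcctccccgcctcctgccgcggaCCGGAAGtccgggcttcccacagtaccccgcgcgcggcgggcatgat

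The NRF1 motif, searched as GCGCATGC, was found in the promoters of Polrmt, Esrra and Tfb2m, and in 2.71% of all 32851 promoter entries of that length. In Polrmt it lies 133 to 126 bases before the start, in Esrra 34 to 27 bases before it, and in Tfb2m 14 to 21 bases after it. The ETS motif that GABP reads, searched as CCGGAAG, was found in Polrmt, Gabpa and Tfam and in 8.86% of all entries. Polrmt thus held letters of both motifs. A cyclic AMP response half-site, searched as TGACGT, was found in 7.51% of all entries. Among the 9 genes searched it was in Ppargc1a alone, 50 to 45 bases before the start. The YY1 motif AAGATGGC was found in Gabpa, 67 to 60 bases before the start, and in 2.75% of all entries. The motif AAGGTCA that ERR-alpha reads was found in none of the 9 genes searched and in 4.72% of all entries. Each match is a description of the letters and not a binding site. Which start of a gene was used in these cells is not known from the counts.

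The 10 genes spanned a wide range of levels per exon length. RPKM, the counts scaled to library size and to the summed exon length, averaged 39.7 for Tfam, the packaging and initiation factor of mitochondrial DNA, which lay above 83.9% of tested genes. Its libraries, between 37.3 and 42.9 RPKM, did not overlap those of Pprc1 (19.3 to 24.8 RPKM, mean 22.1). Gabpa followed at a mean of 18.5 RPKM (17.9 to 19.1). Esrra and Tfb2m, with means of 15.9 and 14.98 RPKM, overlapped in their libraries and cannot be ordered. Polrmt (10.4), Ppargc1b (9.03) and Tfb1m (8.92) overlapped in the same way, around the middle of the tested genes. Nrf1 had a mean of 5.34 RPKM and its highest library, at 5.76, was below the lowest of every gene above it in this order.

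Ppargc1a stood apart at 0.054 RPKM, in the lowest 0.337% of tested genes. On the same scale Ppargc1b and Pprc1 were at 9.03 and 22.1 RPKM, and nearly all PGC-1 family transcripts counted were theirs. In bulk RNA, fewer cells with a transcript and less of it per cell cannot be told apart.

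**Figure D1:**
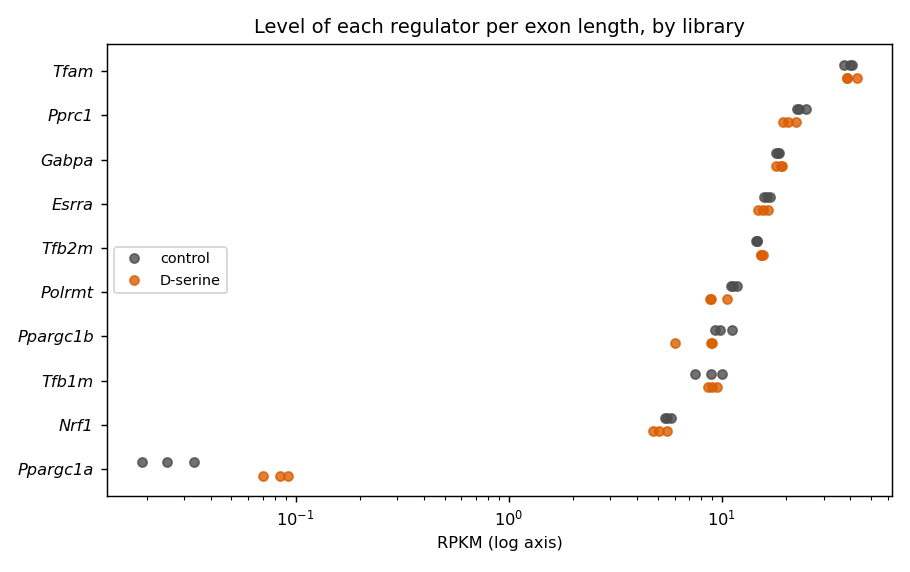
Level of each of the 10 regulators in RPKM (log axis), ordered by mean, with 1 point per library, grey for control and orange for D-serine. Ppargc1a lies between 0.0191 and 0.0921 RPKM, and all other genes lie between 4.74 and 42.9 RPKM.

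At an adjusted p under 0.05, 2 of the 10 genes differed between D-serine and control cultures, beside 9.74% of all 13366 genes tested. Polrmt was lower with D-serine (4.90% of all genes were called lower) and Ppargc1a was higher (4.84% were called higher). Ppargc1a entered the test only through its D-serine libraries, so its call supports nothing here, and with no filter on low counts its adjusted p was 0.0665. The test was edgeR's quasi-likelihood test with Benjamini-Hochberg adjustment over all genes. By point estimate 5 of the 10 genes were higher. In 5 of the 10 no control library overlapped the D-serine libraries, namely Ppargc1a, Ppargc1b, Pprc1, Tfb2m and Polrmt, beside 32.9% of all genes tested.

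**Figure D2:**
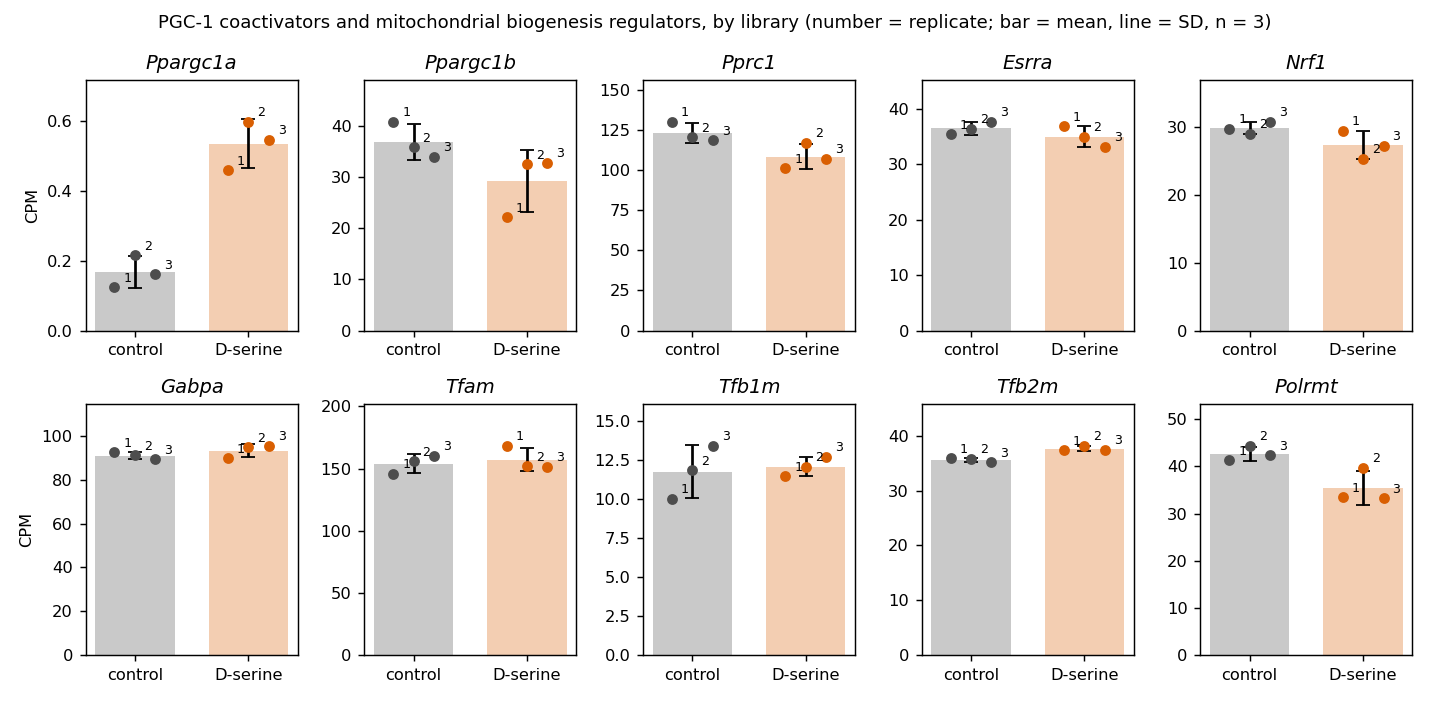
CPM of the 10 regulators in each library, where bars are group means, lines are SD (n = 3 each) and numbers are replicates. Ppargc1a is higher in every D-serine library, Polrmt is lower in every D-serine library, and D-serine replicate 1 is the lowest library of Ppargc1b at 22.2 CPM.

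Ppargc1a encodes PGC-1-alpha, the inducible coactivator of the family (chromosome 5, 51845488 to 51945160, minus strand, 6495 exonic bases). It received 4, 8 and 6 counts in control replicates 1 to 3 and 18, 22 and 22 counts in D-serine replicates 1 to 3. As CPM, the counts scaled to library size alone, these were 0.124, 0.216 and 0.161 in control and 0.459, 0.598 and 0.546 with D-serine. Every D-serine library was above every control library, and the whole difference rests on 18 counts against 62. The log2 fold change was 1.64 with an SE of 0.45, a 3.13-fold higher level (edgeR adjusted p = 0.0388, 95% interval of the log2 fold change 0.67 to 2.62).

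With the main settings otherwise kept, the call of Ppargc1a did not survive the omission of any library. The filter on low counts asked for about 0.266 CPM in 3 libraries, which all 3 D-serine libraries and 0 control libraries reached, so the gene was tested only because it was higher with D-serine. Of 26 genes that passed the filter in this way, 4 (15.4%) were called, beside 9.74% of all genes. Of 14 genes that passed through the control libraries alone, 5 (35.7%) were called. The former calls were all higher and the latter all lower, directions that this way of passing sets in advance. With 1 of the 6 libraries left out, Ppargc1a had log2 fold changes between 1.49 and 1.87. Its edgeR adjusted p-values lay between 0.05002 (D-serine replicate 1 omitted) and 0.140 (control replicate 1 omitted). With D-serine replicate 1 omitted and the length trend removed as well, it was at 1.79 (edgeR adjusted p = 0.0418). That alternative was chosen after seeing the data. With no filter the adjusted p was 0.0665. DESeq2 gave a log2 fold change of 1.67 (SE 0.64) and no adjusted p, since its own filter set the gene aside.

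Markers of brown fat and muscle, where PGC-1-alpha is abundant, were at very low levels. Of the 6 listed, 3 were tested, which were Ucp1, Ckm and Acta1, with edgeR adjusted p-values of 0.879, 0.490 and 0.260. Ucp1, the uncoupling protein of brown fat, averaged 0.389 CPM under vehicle and 0.438 CPM under D-serine. The summed level of the 6 markers lay between 1.53 and 2.51 CPM in control and between 2.31 and 3.19 CPM with D-serine, and Cidea and Adipoq had 2 counts each over all libraries. Their part in the change of Ppargc1a was not tested.

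Ppargc1b encodes PGC-1-beta, the close relative of PGC-1-alpha (chromosome 18, 61457790 to 61560085, minus strand). Its libraries were at 40.8, 35.8 and 34.0 CPM in control and 22.2, 32.5 and 32.8 CPM with D-serine. The groups did not overlap, but D-serine replicates 2 and 3 lay just below the control libraries and replicate 1 far below them. The log2 fold change was -0.34 (SE 0.12, edgeR adjusted p = 0.0919, 95% interval -0.60 to -0.076). Without D-serine replicate 1 it was -0.17 (adjusted p = 0.123). It passed the threshold in the DESeq2 test (adjusted p = 0.0394). In edgeR it passed with no filter on low counts (0.0103) and without D-serine replicate 2 (-0.42, adjusted p = 0.0499).

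Pprc1 encodes PRC, the family member that is regulated with growth (chromosome 19, 46131029 to 46147399, plus strand). It had 130, 120 and 118 CPM in control and 101, 117 and 107 CPM with D-serine. The highest D-serine library, replicate 2, was just under the lowest control library. The log2 fold change of -0.18 (SE 0.058) had an edgeR adjusted p of 0.0625, and a 95% interval from -0.31 to -0.058. DESeq2 gave an adjusted p of 0.0325, edgeR with no filter gave 0.0240, and edgeR without D-serine replicate 2 gave 0.0193 at a log2 fold change of -0.24. By point estimate the abundant Ppargc1b and Pprc1 were both lower, at values that did not pass the main test. Ppargc1a was higher, but it was tested only because of its D-serine libraries, so its direction is not set against theirs.

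D-serine replicate 1 stood apart from its fellows in a way that bears on long genes. A slope on log2 exon length was taken for each library from its log2 CPM less the mean over libraries. It was -0.072, 0.0058 and -0.0040 in D-serine replicates 1 to 3. In control replicates 1 to 3 it was 0.036, 0.019 and 0.015. Every D-serine library thus lay below every control library, so removing the trend also alters the contrast between the groups. With each library's length trend removed, the log2 fold changes were 1.73 for Ppargc1a (edgeR adjusted p = 0.0215), -0.33 for Ppargc1b (0.0379), -0.13 for Pprc1 (0.0532) and -0.26 for Polrmt (0.0120). Ppargc1b thus passed the threshold there, where 15.3% of all genes did. When D-serine replicate 1 was left out as well, Ppargc1b was at -0.17 (0.111).

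None of the 3 DNA-binding factors passed the threshold in edgeR, and none had an unadjusted p under 0.05 in edgeR, DESeq2 or limma-voom. Esrra encodes the orphan nuclear receptor ERR-alpha, a main partner of the PGC-1 coactivators (chromosome 19, 6985467 to 6996298, minus strand). It had 35.4, 36.4 and 37.7 CPM in control and 36.8, 34.9 and 33.2 CPM with D-serine, so the groups overlapped (log2 fold change -0.062, SE 0.060, adjusted p = 0.535). The opposite strand carries Trmt112, with 50 exonic bases in common.

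Nrf1 (chromosome 6, 29997988 to 30103458, plus strand) encodes a factor that binds GC-rich promoters of respiratory genes. It had 29.7, 29.0 and 30.8 CPM in control and 29.4, 25.3 and 27.2 CPM with D-serine. D-serine replicate 1 lay among the control libraries and the other two below them (log2 fold change -0.13, SE 0.068, edgeR adjusted p = 0.243). Gabpa encodes the DNA-binding subunit of GABP, also called NRF-2 (chromosome 16, 84835369 to 84864023, plus strand). Its libraries were at 92.5, 91.3 and 89.4 CPM in control and 89.8, 94.8 and 95.5 CPM with D-serine and overlapped (0.036, SE 0.046, adjusted p = 0.652). The 95% interval for Gabpa, from -0.064 to 0.14, was among the narrowest of the 10 genes. Gabpa shares 123 exonic bases with Atp5j on the opposite strand.

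**Figure D3:**
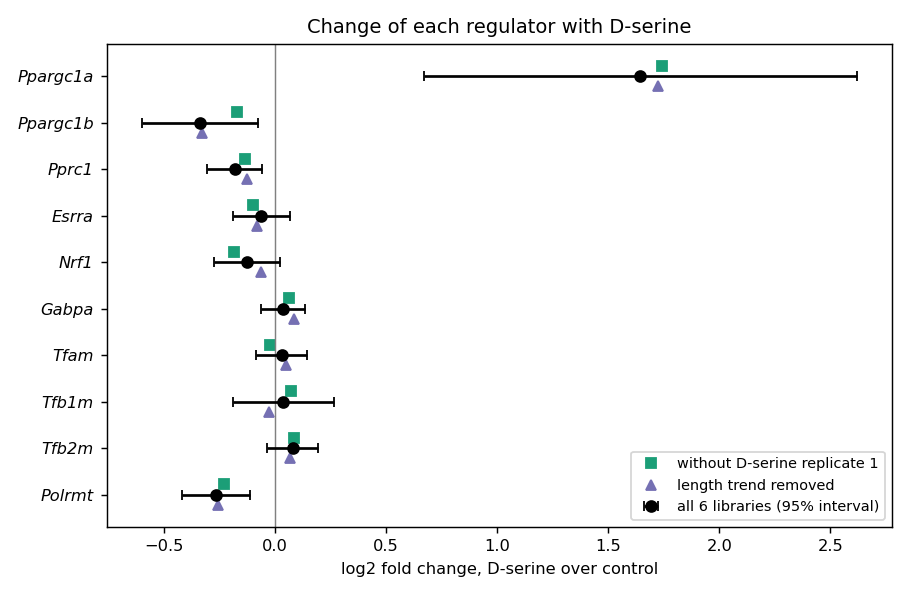
Log2 fold change of each regulator, D-serine over control, with its 95% interval from all 6 libraries (black), without D-serine replicate 1 (green squares) and with the length trend removed (purple triangles). Ppargc1a is at 1.64 with the widest interval, Polrmt is at -0.27, and the square of Ppargc1b is closer to 0 (-0.17) than its circle (-0.34).

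In the mitochondrial transcription group, Polrmt fell, and Tfam, Tfb1m and Tfb2m did not pass the test. Polrmt encodes the mitochondrial RNA polymerase, which also makes the primers for mitochondrial DNA replication (chromosome 10, 79198870 to 79209326, minus strand). It had 1335, 1645 and 1575 counts in control and 1314, 1459 and 1340 with D-serine, which were 41.4, 44.3 and 42.3 CPM against 33.5, 39.7 and 33.3 CPM. All D-serine libraries were below all control libraries, with replicate 2 the closest. The means were 42.7 ± 1.52 and 35.5 ± 3.64 CPM (SD, n = 3 each). The log2 fold change was -0.27 with an SE of 0.071 (edgeR adjusted p = 0.0342, 95% interval -0.42 to -0.11). No exonic base of Polrmt is shared with another gene of the table.

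The adjusted p of Polrmt was 0.0131 in DESeq2 and 0.0322 in limma-voom. It rose above the threshold without control replicate 1 (0.0820), control replicate 2 (0.137), control replicate 3 (0.0826) or D-serine replicate 3 (0.122), while the log2 fold change stayed between -0.35 and -0.22. Without D-serine replicate 1 it was -0.23 (0.0337).

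Tfam (chromosome 10, 70688225 to 70700792, minus strand) was the most abundant of these genes per length. It had 146, 156 and 160 CPM in control and 168, 152 and 151 CPM with D-serine. The highest library was D-serine replicate 1 and the lowest was control replicate 1, and the groups overlapped (log2 fold change 0.030, SE 0.053, edgeR adjusted p = 0.758). Its 95% interval ran from -0.085 to 0.14, and its sign turned when D-serine replicate 1 was left out (-0.022) and when control replicate 1 was (-0.0062).

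Tfb2m encodes the factor that melts the promoter together with the polymerase (chromosome 1, 181458187 to 181476398, minus strand). Its libraries were tight, at 35.9, 35.9 and 35.2 CPM in control and 37.4, 38.2 and 37.5 CPM with D-serine. The groups did not overlap, and the log2 fold change was 0.079 (SE 0.053, edgeR adjusted p = 0.359, 95% interval -0.036 to 0.19).

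Tfb1m encodes its paralog, a methyltransferase of mitochondrial ribosomal RNA (chromosome 17, 3519256 to 3557713, minus strand). It had 10.0, 11.8 and 13.4 CPM in control and 11.4, 12.05 and 12.7 CPM with D-serine. The control libraries spread more widely than those of D-serine and enclosed them (0.037, SE 0.11, edgeR adjusted p = 0.860), and the sign turned with the length trend removed (-0.029), and on leaving out control replicate 1 (-0.061) or D-serine replicate 3 (-0.0015). Tfb1m shares 142 of its 1334 exonic bases with Tiam2 on the opposite strand.

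Around these regulators, 6 lists of pathway genes held 134 tested genes. Of these, 14 passed the threshold (8 higher, 6 lower), beside 9.74% of all genes, and the median of the 134 log2 fold change was -0.0098 beside 0.0053 over all genes tested. Without D-serine replicate 1, 21 of 135 passed (8 higher, 13 lower, beside 12.5% of all genes), and with the length trend removed 28 of 134 did (11 higher, 17 lower, beside 15.3%). Of the 14 genes, the omission of control replicate 2 left 0 past the threshold in edgeR, that of control replicate 1 left 1 (Myc) and that of control replicate 3 left 4. For D-serine replicates 3, 2 and 1, the omission left 2, 9 and 13.

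The first list held partners of the coactivators and other nuclear receptors, with 18 of 21 genes tested. Myc was higher, and Yy1, Hcfc1 and Mef2d were lower, so 4 of 18 were called beside 9.74% of all genes. Yy1 encodes a zinc finger factor that can recruit PGC-1-alpha to mitochondrial genes. It had 199, 193 and 188 CPM in control and 164, 166 and 167 CPM with D-serine, well apart (log2 fold change -0.22, SE 0.042, edgeR adjusted p = 0.0114). Hcfc1 encodes host cell factor, which binds PGC-1-beta and PRC. It had 384, 376 and 357 CPM in control and 253, 333 and 317 CPM with D-serine, with D-serine replicate 1 again the lowest (-0.31, SE 0.078, adjusted p = 0.0300). Mef2d (-0.23, adjusted p = 0.0428) and Myc, a growth factor-responsive transcription factor (0.25, adjusted p = 0.0077), completed the called genes. Esrrb and Esrrg, the relatives of Esrra, had 38 and 23 counts over all libraries and were not tested.

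Upstream regulators of PGC-1, such as kinases, acetyltransferases and deacetylases, were tested in 26 of 27 cases. By edgeR 0 of them passed the threshold and 11 had an unadjusted p under 0.05, as did 28.2% of all genes tested. DESeq2 called 2, beside 13.3% of all genes with an adjusted p there, and limma-voom called 0, beside 9.43%. By point estimate 23 of the 26 were lower, with a median log2 fold change of -0.12 beside 0.0053 over all genes tested. Without D-serine replicate 1 the median was -0.075 and 4 genes passed, all lower, beside 12.5% of all genes. These were Crebbp, Ep300, Prmt1 and Stk11, named after their values were seen. Crebbp (-0.19, edgeR adjusted p = 0.0162) and Ep300 (-0.14, adjusted p = 0.0302), acetyltransferase genes with long transcripts, also passed with the length trend removed, at -0.24 and -0.15. In that fit 6 of the 26 passed, all lower, beside 15.3% of all genes. The others were Prmt1 (-0.16, edgeR adjusted p = 0.00499), Ncoa1, Crtc2 and Prkab1, named after their values were seen. There 19 of the 26 were lower by point estimate, with a median of -0.066 beside 0.0040 over all genes tested. Sirt1, which encodes the deacetylase that acts on PGC-1-alpha, averaged 140 CPM under vehicle and 131 CPM under D-serine (-0.098, adjusted p = 0.146), and Prkaa1, a catalytic subunit of AMP kinase, at 117 and 116 CPM (-0.012, adjusted p = 0.911). Both were named after their values were seen.

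**Figure D4:**
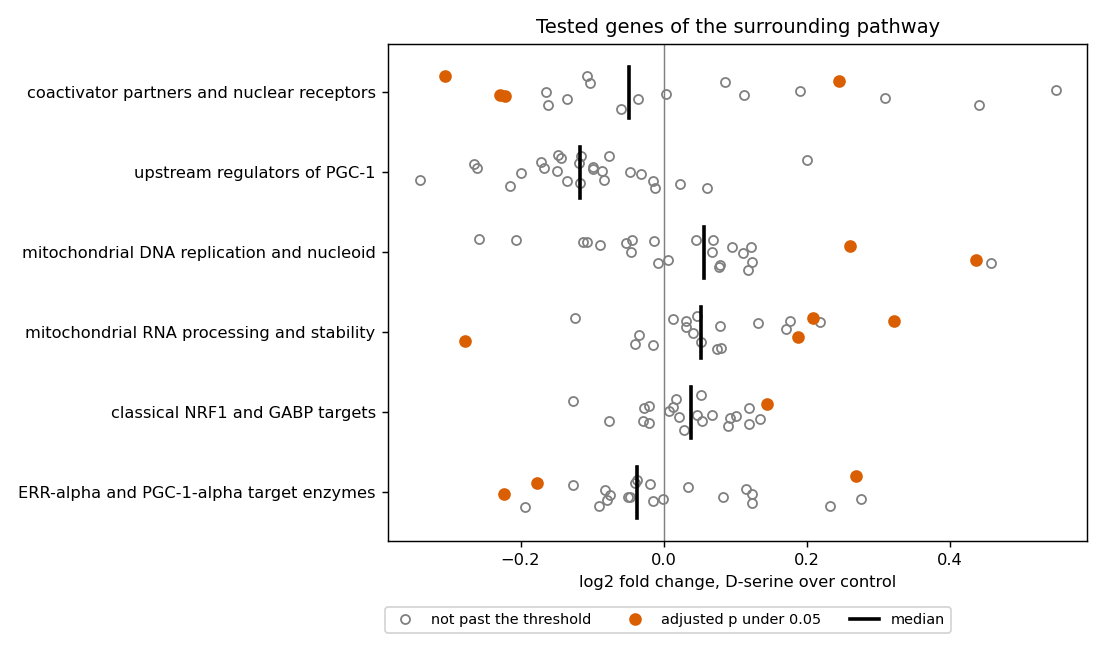
Log2 fold change, D-serine over control, of every tested gene of the 6 pathway lists, with 1 point per gene, filled where the edgeR adjusted p is under 0.05, and a black line at each median. The upstream regulators have no filled point and a median of -0.12, and the mitochondrial RNA list has 3 filled points to the right of 0 and 1 to the left.

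Of 24 genes of mitochondrial DNA replication and the nucleoid, all tested, 2 were called, beside 9.74% of all genes. Both were higher, beside 4.84% of all genes called higher. Tefm encodes the elongation factor of the mitochondrial RNA polymerase. Its libraries were at 6.41, 6.09 and 5.43 CPM in control and 7.42, 8.11 and 8.71 CPM with D-serine (log2 fold change 0.44, SE 0.12, edgeR adjusted p = 0.0331). The elongation factor transcript was thus higher and the polymerase transcript Polrmt lower. Neither call was stable, as Tefm passed the threshold in 10 of 17 alternatives and Polrmt in 12 of 17. Mgme1, an exonuclease gene of mitochondrial DNA, was at 24.8, 30.2 and 30.5 CPM in control and 33.7, 34.3 and 34.7 CPM with D-serine (0.26, SE 0.077, adjusted p = 0.0483). The polymerase gene Polg, named after its values were seen, was at -0.21 (adjusted p = 0.0730).

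In the list on mitochondrial RNA processing and stability, 21 genes were tested and 4 were called, 3 higher and 1 lower, beside 4.84% and 4.90% of all genes. Trmt10c, a subunit gene of mitochondrial RNase P, rose from 78.5 ± 2.03 to 89.4 ± 3.56 CPM (0.19 on the log2 scale, edgeR adjusted p = 0.0320; SD, n = 3 each). Fastkd2, an RNA-binding protein gene (0.21, adjusted p = 0.0457), and Rexo2, an oligoribonuclease gene (0.32, adjusted p = 0.0483), were higher too. Ptcd1, which encodes a pentatricopeptide repeat protein of mitochondrial RNA, fell from 33.9 ± 0.41 to 27.9 ± 0.62 CPM (-0.28, adjusted p = 0.0147; SD, n = 3 each), and has 240 exonic bases in common with Bud31 on the opposite strand.

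Genes known as targets of NRF1 and GABP were called in 1 of 22 cases, beside 9.74% of all genes. This was Cycs, encoding cytochrome c, which had 321, 314 and 320 CPM in control and 366, 345 and 344 CPM with D-serine (log2 fold change 0.14, SE 0.042, edgeR adjusted p = 0.0466). The median of the list, 0.038 with all libraries, turned to -0.021 when D-serine replicate 1 was left out and to -0.029 with the length trend removed. Among 23 tested targets of ERR-alpha and PGC-1-alpha, 3 were called, beside the same 9.74%. Ucp2, a mitochondrial carrier gene, was higher (0.27, adjusted p = 0.0149). In the same list Vegfa, an angiogenic growth factor gene (-0.18, adjusted p = 0.0223), and Mfn1, which encodes a mitochondrial fusion protein (-0.22, adjusted p = 0.0494), were lower. With the length trend removed, where 15.3% of all genes were called, 7 of these 23 were (2 higher, 5 lower), and 4 of the 22 targets of NRF1 and GABP (2 higher, 2 lower). Pdk4, a target that PGC-1-alpha induces in muscle, had 0 counts in all libraries.

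Libraries held 32518483 to 40024265 counts in total. Neuroblast markers were abundant, with a summed level of 1947 to 2032 CPM in control and 2062 to 2196 CPM with D-serine over 14 genes. Of the 12 tested, 1 was called in edgeR, Tubb3, a neuronal tubulin gene (log2 fold change 0.25, adjusted p = 0.0148). Nefl and Nefm had 2 and 17 counts, and Dcx, which was tested, had 94. Summed markers of glia lay between 14.4 and 16.2 CPM and those of fibroblasts between 4.61 and 6.90 CPM over all libraries, with Aqp4 and Lum at 0 counts. The part of the neuroblast markers in the results above was not tested.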

How the data were processed

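Raw counts of reads per gene in the 6 libraries were deposited by the authors as a single table, with summed exon lengths in bases, in the layout of featureCounts per the file headers. HISAT2, Trim Galore, featureCounts of Subread and DESeq2 are named in the submitters' processing notes, without versions. These notes name GRCm38, but 0 of the 10 genes had the RefSeq GRCm38 start or end, so gene coordinates are those of the table, 1-based, on a build that was not settled, and promoter coordinates are GRCm38.p6. Strand setting and multi-mapping are not given in the sources used here, so overlaps on either strand are reported.

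Counts were tested with edgeR 4.0.16 in R 4.3.3 (filterByExpr, TMM scaling, quasi-likelihood F test, two-sided, Benjamini-Hochberg over 13366 genes, threshold 0.05). The SE is the size of the log2 fold change divided by the square root of F. CPM uses TMM-adjusted library sizes. The steps were tested on simulated data, where 65.3% of genes changed 1.25-fold and 87.8% of those changed 2-fold were recovered (13261 genes in the fit). The simulated counts were drawn independently, without a length trend or an outlying library, so these rates need not hold for the real libraries. Alternatives used DESeq2 1.42.0, limma-voom (limma 3.58.1), other scalings and filters, a replicate block, a length trend (natural spline, 5 degrees of freedom) and the omission of each library.

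The members, lists and tests were chosen with earlier results of these data known. All 10 members are named, and from each pathway list up to 4 genes with the smallest p among those past the threshold and without overlap between groups. Genes named outside this rule are marked, markers and untested genes aside. Prorp was the 1 listed pathway gene whose symbol was not matched. Pairs of libraries of a group differed by a chi-square of 3.88 to 17.7 per degree of freedom, so none was treated as 1 library deposited repeatedly.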

Additional observations from a re-analysis of the deposited data

How the results depend on the processing

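Control against D-serine gave 1302 genes past the threshold in edgeR, 2 of them among the 10 regulators. The cause of the changes below was not tested except where the construction shows it. With the replicate block there were 298 genes (178 higher, 120 lower) and 0 regulators past the threshold (0 higher, 0 lower). In that edgeR fit 4 regulators had an unadjusted p under 0.05, beside 24.5% of all genes tested. The adjusted p there was 0.0861 for Ppargc1a and 0.0523 for Polrmt. Same-numbered libraries did not deviate together (correlations of -0.069, 0.020 and -0.019), and 1 of the 6 samples correlated best with its own number. The numbers were therefore not taken to pair the samples. With 3 libraries per group and the length trend left in these values, the correlations cannot exclude a shared culture or day. With the length trend removed there were 2043 genes (1023 higher, 1020 lower) and 2 lower regulators, and 2 lower regulators also with the length trend removed with the replicate block. Upper quartile scaling and library totals each gave 412 lower genes, with 914 and 944 higher. Without a filter there were 987 lower genes, 3 lower and 0 higher regulators. DESeq2 also gave 3 lower and 0 higher regulators, where Ppargc1a had no adjusted p. With a mean of at least 50 counts, Ppargc1a was not tested, which left 1 regulator, 0 of them higher.

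Leaving out the libraries in turn gave 68 to 1699 genes (47 to 783 higher, 21 to 916 lower), and 0 to 3 regulators past the threshold (0 higher in each, 0 to 3 lower). By edgeR, 3 to 5 regulators had an unadjusted p under 0.05 in them, beside 20.8% to 28.6% of all genes tested. Directions turned only in Tfam and Tfb1m, at values near 0. Tfam ran from -0.022 to 0.061 over the fits with 1 library left out. It turned on omitting control replicate 1 (-0.0062), D-serine replicate 1 (-0.022), or the latter together with the length trend (-0.014), an alternative chosen after seeing the data. Tfb1m ran from -0.061 to 0.14. It turned with the length trend removed (-0.029), with the length trend and the replicate block (-0.022), and on omitting control replicate 1 (-0.061) or D-serine replicate 3 (-0.0015). The low counts of Ppargc1a limit its precision.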
